A study of Mus musculus with 2 samples.

Results

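Endocytic genes of the early endoderm, together with some of its surface and calcium-handling genes, were followed in mouse iPSCs (induced pluripotent stem cells, made by reprogramming body cells until they resemble the early embryo's epiblast), cell by cell. The 8 genes, out of 27998 in the deposited matrices, were Cubn, Lrp2, Amn, Dab2, Pdgfra, Srgn, S100g and Aqp8. They were chosen from results of these same cells, namely their level in the knockout, their share of cells, their correlation with one another and their link to Gata6 and Pou5f1. All of those values are therefore given as descriptions, with no test. The study compared iPSCs homozygous for a deleted Srf allele (SRFΔ/Δ, knockout) with iPSCs homozygous for the floxed, undeleted allele (SRFf/f, called wild type here), both grown in medium with serum. Each genotype was represented by 1 droplet library, so nothing is known of the spread between cultures or clones, and intervals at 95% cover counting error only.

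Not every gene of the set codes for a receptor or a surface protein. Lrp2 (megalin) and Cubn (cubilin) are giant receptors that take up proteins, lipids and vitamin carriers, and Amn (amnionless) is the membrane partner that carries cubilin to the cell surface. Dab2 is a cytosolic adaptor that links the tails of such receptors to the clathrin coat. Pdgfra is the receptor tyrosine kinase for platelet-derived growth factors and marks the primitive endoderm, the early lineage that lines the blastocyst cavity and forms the yolk sac. Aqp8 is a water channel of the membrane, Srgn (serglycin) is a proteoglycan of secretory granules, and S100g (calbindin D9k) is a calcium-binding protein of the cytosol. The visceral endoderm, which descends from the primitive endoderm, uses the megalin and cubilin system to feed the embryo. Gata6 encodes a transcription factor that drives primitive endoderm fate, and Pou5f1 (Oct4) encodes a transcription factor of pluripotent cells.

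The genes lie apart in the genome, on 7 chromosomes in GRCm38, and all are annotated as protein coding. Cubn spans chr2:13276338-13491813 and Lrp2 spans chr2:69424340-69586065, both on the minus strand. Amn lies at chr12:111271095-111276426, Dab2 at chr15:6299788-6440712, Pdgfra at chr5:75152292-75198215 and Aqp8 at chr7:123462291-123468004, all on the plus strand. Srgn lies at chr10:62493833-62527451 and S100g at chrX:162961992-162964599, both on the minus strand. S100g overlaps the coding gene Ctps2 on the opposite strand, and Dab2 and Pdgfra overlap the antisense genes Gm16311 and Gm42802. Whether the deposited counts used strand is not given in the sources used here, so reads of such partners may have been shared.

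Gata6 binds DNA at sites that hold GATA, so the 250 bases before the start of each gene were searched for the letters GATAA on either strand (TTATC on the other), in sequences from RefSeq (GRCm38.p6). The table held 10 start sites for the 8 genes, and 1 window (10%) held the letters, against 7418 of the 32851 promoters in the table (22.6%). That window belonged to Dab2, where the match began 178 bases before the start. The Dab2 window (chr15:6299539-6299788, plus strand) is shown with the match in capitals, beside the windows of Cubn (chr2:13491877-13492126, minus strand) and Srgn (chr10:62527446-62527695, minus strand), the genes that followed Dab2 most closely from cell to cell and that hold no match.
Dab2: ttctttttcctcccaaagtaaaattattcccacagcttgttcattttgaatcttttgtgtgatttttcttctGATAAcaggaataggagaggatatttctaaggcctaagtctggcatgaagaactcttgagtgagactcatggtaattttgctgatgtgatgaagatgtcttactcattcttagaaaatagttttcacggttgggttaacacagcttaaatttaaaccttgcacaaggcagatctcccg
Cubn: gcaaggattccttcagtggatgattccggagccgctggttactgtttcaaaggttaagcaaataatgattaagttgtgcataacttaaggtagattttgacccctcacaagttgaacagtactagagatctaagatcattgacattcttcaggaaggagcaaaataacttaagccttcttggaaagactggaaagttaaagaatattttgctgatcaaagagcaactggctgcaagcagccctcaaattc
Srgn: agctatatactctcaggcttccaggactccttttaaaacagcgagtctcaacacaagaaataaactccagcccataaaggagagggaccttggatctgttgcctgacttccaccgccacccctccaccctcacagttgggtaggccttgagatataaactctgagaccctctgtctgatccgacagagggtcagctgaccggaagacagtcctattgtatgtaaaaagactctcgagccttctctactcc
A match of 5 letters is a description of the sequence and not a binding site, and its lack says only that these letters are not in this window.

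The knockout library held 1073 deposited cells and the wild-type library 954. Cells with at least 1000 detected genes, at most 10% mitochondrial counts and fewer than 5 raw counts summed over the fibroblast genes Col1a2, Col3a1 and Acta2 were kept. That left 975 knockout cells with 21047611 unique molecular identifiers (UMIs, counts of single RNA molecules) and a median of 21456 per cell, and 909 wild-type cells with 23556750 UMIs and a median of 26537. Srf itself had 3 UMIs among knockout and 204 among wild-type cells. The libraries also differed in cells with under 1% mitochondrial counts (25.03% against 1.76%) and in cells whose share of chromosome 8 counts was over 1.2 times the wild-type median (468 against 88 cells). Only 2 cell barcodes occurred in both libraries, and these cells held 0 UMIs of the 8 genes in the knockout library and 2 in the other.

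All 8 genes were higher in the knockout library, by 8.44-fold to 141-fold. Their log2 ratios, knockout over wild type with 0.5 counts added to each sum, had a median of 4.60, against 0.07 over the 11799 genes whose mean over both libraries reached 1 CPM (UMIs per 1e6 UMIs of the sum). All 8 passed that minimum, and all 8 were at least 2-fold higher, as were 2.98% of those genes, while 1.78% of them were at least 2-fold lower. As the genes were chosen on this contrast, nothing is read from that count. A higher sum can come from more cells with the RNA or from more RNA per cell. Sums and shares of cells are given below for each gene. In unthinned cells with the gene, median knockout UMIs were 7 (Cubn), 8 (Dab2), 2 (Lrp2, Amn), 3 (Pdgfra, Srgn, Aqp8) and 1 (S100g). In the wild type they were 1, apart from 1.5 for Srgn and 21 for Aqp8, which was found in 1 cell.

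The receptors and their partners came first. Cubn had 1489 UMIs in the knockout cells (70.7 CPM, interval 67.2 to 74.4) and 51 in the wild-type cells (2.16 CPM, interval 1.61 to 2.85), a log2 ratio of 5.02 (interval 4.63 to 5.46). Lrp2 had 1021 UMIs (48.5 CPM) and 70 UMIs (2.97 CPM), a log2 ratio of 4.02 (interval 3.68 to 4.40). Cubilin and megalin RNA were thus rare in the wild-type library and many times more abundant in the knockout library. Amn, which cubilin needs to reach the surface, had 516 UMIs (24.5 CPM) and 68 UMIs (2.89 CPM), a log2 ratio of 3.08 (interval 2.72 to 3.47), the smallest of the 8. Dab2, the adaptor, had 1832 UMIs (87.0 CPM) and 86 UMIs (3.65 CPM), a log2 ratio of 4.57 (interval 4.26 to 4.90).

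Among the other genes, Pdgfra was nearly absent from the wild-type cells, with 2 UMIs (0.085 CPM) against 314 in the knockout cells (14.9 CPM). Its log2 ratio of 7.14 was the largest of the 8, and its interval, from 5.59 to 10.5, was wide because of the 2 wild-type counts. Srgn had 2182 UMIs (103.7 CPM) in knockout cells and 98 (4.16 CPM) in the others, a log2 ratio of 4.63 (interval 4.35 to 4.95). The calcium-binding protein and the water channel had higher levels in the knockout too. S100g had 298 UMIs (14.2 CPM) and 5 UMIs (0.212 CPM), a log2 ratio of 5.92 (interval 4.82 to 7.69), and Aqp8 had 201 UMIs (9.55 CPM) and 21 UMIs (0.891 CPM), a log2 ratio of 3.39 (interval 2.77 to 4.14). The plot of levels by library shows the 8 genes side by side.

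**Figure D1:**
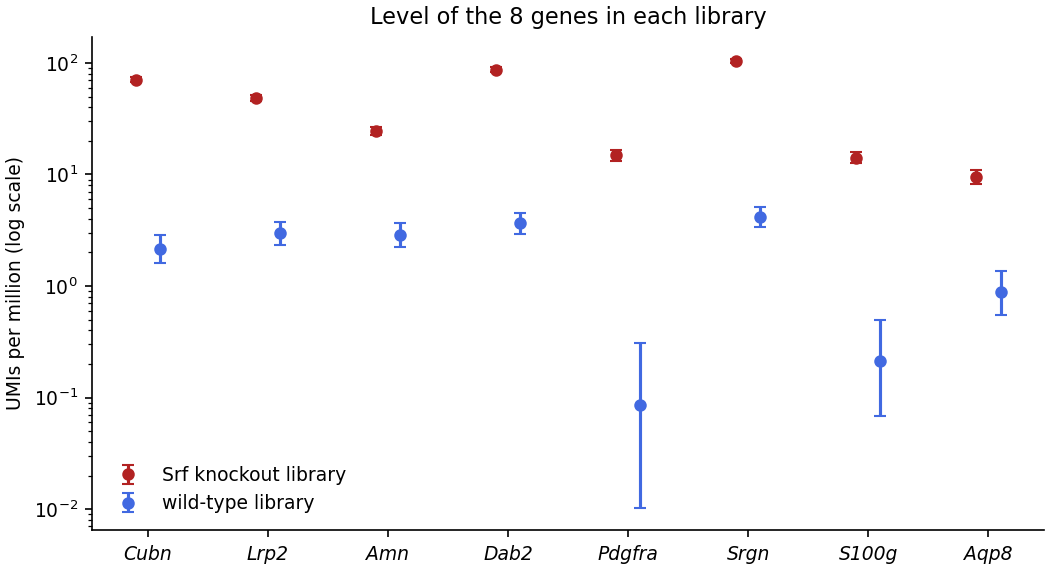
Level in CPM (log axis) of the 8 genes over the kept cells of the knockout library (red, 975 cells) and the wild-type library (blue, 909 cells), with exact 95% Poisson intervals of counting error as bars. In each gene the knockout interval lies above the wild-type interval, and the wild-type intervals of Pdgfra and S100g are wide because they rest on 2 and 5 UMIs.

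Within each library the UMIs were held by few cells, and in the wild type often by a single one. In the knockout library 50% of the UMIs lay in 16 cells for Cubn, 13 for Lrp2, 18 for Amn, 22 for Dab2, 22 for Pdgfra and 18 for Srgn, but in 2 cells for S100g and 5 for Aqp8. One cell of the wild-type library, of 46778 UMIs, held UMIs of all 8 genes. Whether it came from the wild-type culture was not tested, and the wild-type levels and ratios above include it. It had 44 of the 51 Cubn UMIs of its library, 29 of 70 for Lrp2, 13 of 68 for Amn, 34 of 86 for Dab2, 1 of 2 for Pdgfra, 91 of 98 for Srgn, 3 of 5 for S100g and all 21 for Aqp8. The same cell held 3 UMIs of Gata4, 2 of Sox17, 6 of Ttr and 1 of Pou5f1, but 0 of Gata6 and 0 of the 10 macrophage markers examined. With the cell of most UMIs of each gene left out of each library, the log2 ratio was 7.71 for Cubn, 8.27 for Srgn, 8.32 for Aqp8, 5.23 for Dab2 and 4.69 for Lrp2, so the single wild-type cell makes up much of the wild-type level of those genes.

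S100g and Aqp8 rested on few knockout cells. One knockout cell held 97 of the 298 S100g UMIs (32.6%) and 59 of the 201 Aqp8 UMIs (29.4%), and another held 72 S100g and 6 Aqp8 UMIs. Neither of these cells had a Cubn UMI, while they held 3 and 1 of Lrp2, 5 and 4 of Dab2, and 9 and 14 of Srgn. They also held 8 and 7 UMIs of Sox17, a transcription factor of endoderm, 2 and 4 of Gata6, and 0 of Pou5f1. Elsewhere the highest knockout cell held between 4.09% (Dab2) and 6.37% (Lrp2) of a gene's UMIs, for the 6 genes other than S100g and Aqp8.

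To compare shares of cells at equal depth, each cell was thinned to 7747 UMIs, which kept 830 knockout and 865 wild-type cells and left out 145 and 44 shallower ones. In thinned knockout cells Srgn was found in 95 cells (11.4%, exact binomial interval 9.36 to 13.8), Dab2 in 92 (11.1%), Lrp2 in 78 (9.40%), Cubn in 77 (9.28%), Amn in 68 (8.19%) and Pdgfra in 50 (6.02%). S100g was found in 25 cells (3.01%) and Aqp8 in 21 (2.53%). Srgn, Dab2, Lrp2, Cubn and Amn were therefore seen in 68 to 95 cells each, and Aqp8 in the fewest. In thinned wild-type cells the counts were 15 for Lrp2 (1.73%), 15 for Amn (1.73%), 10 for Dab2 (1.16%), 4 for Cubn (0.462%), 4 for Srgn (0.462%), 1 for Pdgfra and 1 for Aqp8 (0.116% each). S100g was found in 0 of 865 cells, which allows a share of up to 0.347% at 3 counts (exact upper bound 0.426%). That limits only cells with a UMI at this depth, since 3 unthinned wild-type cells held S100g. Unthinned, the knockout shares ran from 3.69% (Aqp8) to 15.5% (Srgn), and the wild-type shares from 0.110% (Aqp8) to 5.72% (Amn).

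Cells of other kinds gave the background for these shares. The 22 fibroblast-marked knockout cells left out (median 26799 UMIs) held 0 UMIs of Cubn, Amn, S100g and Aqp8 and 1 of Lrp2, and the 10 such wild-type cells (median 20188 UMIs) held 1 of Cubn and 0 of the other 4. For Cubn, Amn, S100g and Aqp8 this allows a share of up to 15.4% of knockout fibroblast-marked cells (upper exact bound), so these few cells set only a loose limit. Dab2 is also a gene of fibroblasts and macrophages, and Pdgfra of fibroblasts. The fibroblast-marked cells carried Dab2 in 11 of 22 knockout and 5 of 10 wild-type cells, and Pdgfra in 5 of 22 and 0 of 10. Among kept cells, 5 knockout and 4 wild-type cells had at least 5 UMIs of the macrophage genes Wfdc17, Ccl6 and Pf4. They held 45 of 1832 Dab2 UMIs (knockout) and 32 of 86 (wild type), and without them the log2 ratio of Dab2 was 5.20. Srgn was found in all 5 of these knockout cells (13 UMIs) and in 3 of the 4 wild-type cells (5 UMIs). Only 6 kept wild-type cells held Srgn, and its log2 ratio without the macrophage-marked cells was 4.70.

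Most knockout cells held none of the 8 genes, and a small group held many. Of the 830 thinned knockout cells, 658 had 0 of the genes, 84 had 1, 12 had 2, 12 had 3, 13 had 4, 11 had 5, 26 had 6, 13 had 7 and 1 had all 8. Cells with 6 genes were thus more numerous than those with 2, 3, 4 or 5. At least 2 of the genes were found in 88 knockout cells (10.6%, exact binomial interval 8.59 to 12.9) and in 3 wild-type cells (0.347%, interval 0.0716 to 1.01), a difference of 10.3 percentage points. The 3 wild-type cells were the cell described above and 2 macrophage-marked cells, and 2 of the 88 knockout cells were macrophage-marked. Unthinned, the counts were 130 of 975 (13.3%) and 7 of 909 (0.770%).

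The cells with a single gene had another make-up in each library. Of the 40 thinned wild-type cells with exactly 1 gene, 14 had Lrp2, 14 had Amn, 7 had Dab2, 3 had Cubn, 1 had Pdgfra and 1 had Srgn. Lrp2 and Amn were found there at 1 thinned UMI per cell. Of the 84 knockout cells with exactly 1 gene, 20 had Srgn, 17 Lrp2, 16 Amn, 10 Cubn, 10 Dab2, 10 Pdgfra and 1 S100g. Among the 64 knockout cells with 4 or more genes, Dab2 was found in all 64, Srgn in 61, Cubn in 59, Lrp2 in 54, Amn in 48, Pdgfra in 33, S100g in 22 and Aqp8 in 21. Within the thinned knockout cells Aqp8 was thus found only in those with 4 or more of the genes, and S100g in such cells for 22 of 25. That range is itself a count of these genes, so these shares follow in part from how it was set.

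Correlation across the 830 thinned knockout cells placed 5 of the genes in a tight block. The values are Pearson r of log2(thinned UMIs + 1) across cells of 1 library at 1 fixed depth, and they carry no p-value because such cells are not replicates. The 28 pairs had a median r of 0.47, from 0.11 to 0.86. The 10 pairs among Cubn, Lrp2, Amn, Dab2 and Srgn had a median of 0.80, from 0.66 (Lrp2 with Amn) to 0.86 (Dab2 with Srgn). In cell counts, 55 knockout cells had both Cubn and Lrp2, of 77 with Cubn and 78 with Lrp2, and 65 had both Cubn and Dab2.

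Pdgfra, S100g and Aqp8 stood outside that block in different ways. The 7 pairs of Pdgfra with the other genes had a median r of 0.39, and those with S100g and Aqp8 were the lowest, both at 0.11. The 7 pairs of S100g had a median of 0.27, with its highest Pearson value to Aqp8 (0.49), and 8 cells had both. By Spearman correlation that pair was at 0.33, below S100g with Dab2 (0.48) and with Srgn (0.44). The knockout cell with the most S100g UMIs also held the most Aqp8 UMIs, and its part in the Pearson value was not tested. Nearly all cells with the rarer genes also had Dab2, namely 24 of 25 with S100g and 21 of 21 with Aqp8, while 36 of 50 with Pdgfra did. With the 2 knockout cells of most S100g UMIs left out, the median over all 28 pairs stayed within 0.1 of its value. In the wild-type library the same pairs rested on 1 shared cell or none, apart from Dab2 with Srgn, which shared 3 cells, so those correlations describe single cells.

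**Figure D2:**
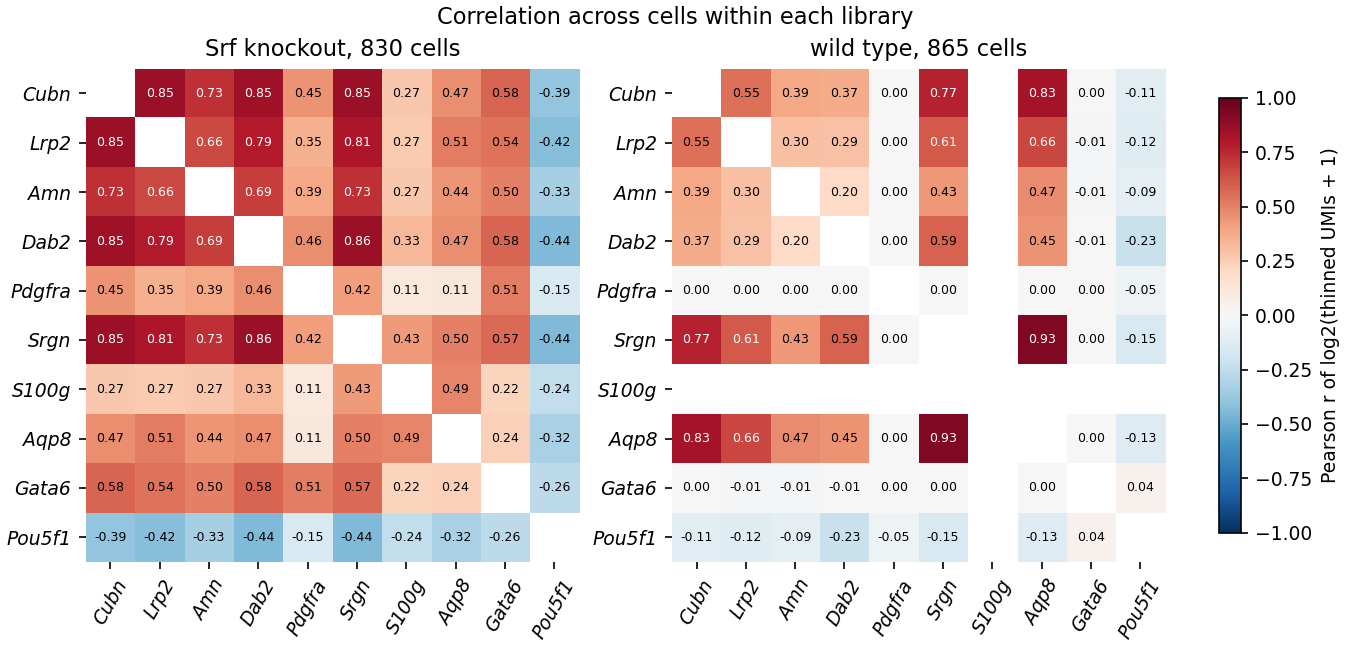
Pearson r of log2(thinned UMIs + 1) between the 8 genes, Gata6 and Pou5f1 across cells of the knockout library (left, 830 cells) and the wild-type library (right, 865 cells), with colour from -1 (blue) to 1 (red). On the left the pairs among Cubn, Lrp2, Amn, Dab2 and Srgn lie between 0.66 and 0.86, and the wild-type S100g row is blank because no thinned cell held it.

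Gata6 was found in 109 of 830 thinned knockout cells and in 4 of 865 wild-type cells. Across knockout cells, r with Gata6 was 0.58 for Cubn, 0.58 for Dab2, 0.57 for Srgn, 0.54 for Lrp2, 0.51 for Pdgfra, 0.50 for Amn, 0.24 for Aqp8 and 0.22 for S100g, a median of 0.53. Of the 7309 genes with at least 50 thinned UMIs, 1.63% had an r of at least 0.3 with Gata6, and 6 of the 8 genes did. This link was part of how the genes were chosen, so it supports nothing further. Pdgfra was the gene whose cells most often had Gata6, with 43 of 50 (86.0%), followed by Aqp8 with 17 of 21 (81.0%), against 56 of 77 for Cubn (72.7%), 62 of 92 for Dab2 (67.4%) and 59 of 95 for Srgn (62.1%). These shares were not tested against each other.

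The levels climbed with the number of Gata6 UMIs in the knockout cells. In cells with 0 thinned Gata6 UMIs (721 cells), 1 (41 cells) and 2 or more (68 cells), Cubn was at 14.8, 274 and 589.6 CPM, and Lrp2 at 10.1, 194 and 398 CPM. Dab2 was at 18.0, 379.7 and 687 CPM, Srgn at 22.2, 499 and 782 CPM, Amn at 5.86, 95.2 and 192 CPM, and Pdgfra at 2.84, 72.9 and 119.7 CPM. The link to Gata6 was part of how the genes were chosen, and the counting intervals leave out the spread between cells. Within the 41 cells, the highest cell held from 12.5% (Pdgfra) to 24.0% (Cubn) of the UMIs of these 6 genes. Aqp8, at 5.74, 30.4 and 42.4 CPM, had overlapping intervals in the upper ranges. S100g was at 7.28, 22.3 and 86.6 CPM, but 97 of its 128 UMIs in the lowest range and 72 of its 139 in the highest came from 1 cell each. The median depth of the 3 ranges was 23908, 22062 and 21896 UMIs. The 4 wild-type cells with a thinned Gata6 UMI had 0 thinned UMIs of the 8 genes.

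**Figure D3:**
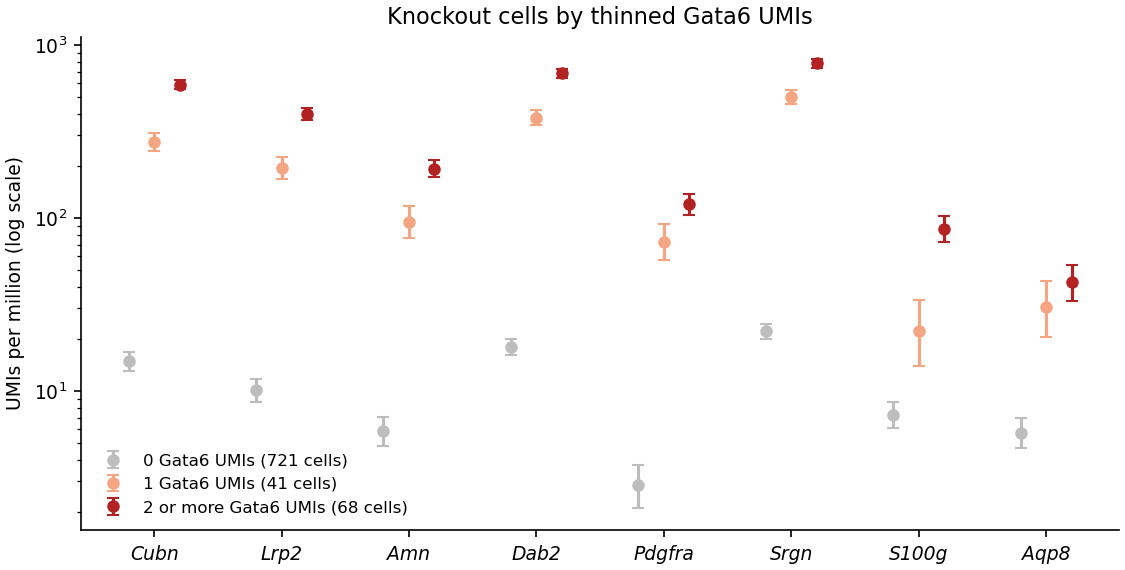
Level in CPM (log axis) of the 8 genes in knockout cells with 0 (grey, 721 cells), 1 (orange, 41 cells) and 2 or more (red, 68 cells) thinned Gata6 UMIs, with exact 95% Poisson intervals as bars. The level is lowest in grey for each gene. The orange and red intervals of Aqp8 overlap, and the bars leave out the spread between cells.

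Pdgfra was next followed by Gata6 and by how many of Cubn, Lrp2, Amn, Dab2 and Srgn a cell held, a split chosen after the correlations were seen and given as a description. Among knockout cells without Gata6 and without the 5 genes, 1 of 628 had Pdgfra. Among cells with Gata6 and still none of the 5 genes, 9 of 41 had it (22.0%, exact binomial interval 10.6 to 37.6), at a mean of 6.24 thinned Pou5f1 UMIs per cell, against 6.36 in the 628 cells. The mean Pou5f1 of those 41 cells thus lay near that of cells with neither Gata6 nor the 5 genes. Counted the same way, in cells with Gata6 and none of the other 5 of these 6 genes, Cubn was found in 1 of 33 cells and Dab2 in 1 of 33. Lrp2, Amn and Srgn were found in 0 of 32 each, whose exact upper bound is 10.9%. In cells with neither Gata6 nor the other 5, Cubn was found in 9 of 636 and Dab2 in 10 of 637. Lrp2 was found there in 17 of 644, Amn in 16 of 643 and Srgn in 20 of 647. The 5 genes were grouped because they were found together, so each is rare without the others. The contrast of Pdgfra with them thus follows in part from the split. With Gata6 and 1 or 2 of the 5 genes, 6 of 9 cells had Pdgfra (interval 29.9% to 92.5%). With Gata6 and 3 or more, 28 of 59 did (47.5%, interval 34.3 to 60.9), at a mean of 2.76 Pou5f1 UMIs. Without Gata6, Pdgfra was found in 1 of 80 cells with 1 or 2 of the 5 genes and in 5 of 13 with 3 or more. Median depths of the 6 groups lay between 21948.5 and 24991 UMIs.

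Pou5f1 ran the other way. Its r across knockout cells was -0.44 with Dab2, -0.44 with Srgn, -0.42 with Lrp2, -0.39 with Cubn, -0.33 with Amn, -0.32 with Aqp8, -0.24 with S100g and -0.15 with Pdgfra, a median of -0.36. An r of -0.3 or lower with Pou5f1 was found in 0.835% of the 7309 genes. The mean of thinned Pou5f1 UMIs was 6.36 in cells with 0 of the genes and 6.01 in those with 1. It was 4.08 with 2, where 2 of the 12 cells were macrophage-marked. From there it was 5.08 with 3, 3 with 4, 2.45 with 5, 2.15 with 6 and 2.38 with 7. The mean was thus near that of cells with none at 1 gene, and lowest from 5 genes on. Of the 64 cells with 4 or more genes, 17 had 0 thinned Pou5f1 UMIs, against 7 of the 658 with none.

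**Figure D4:**
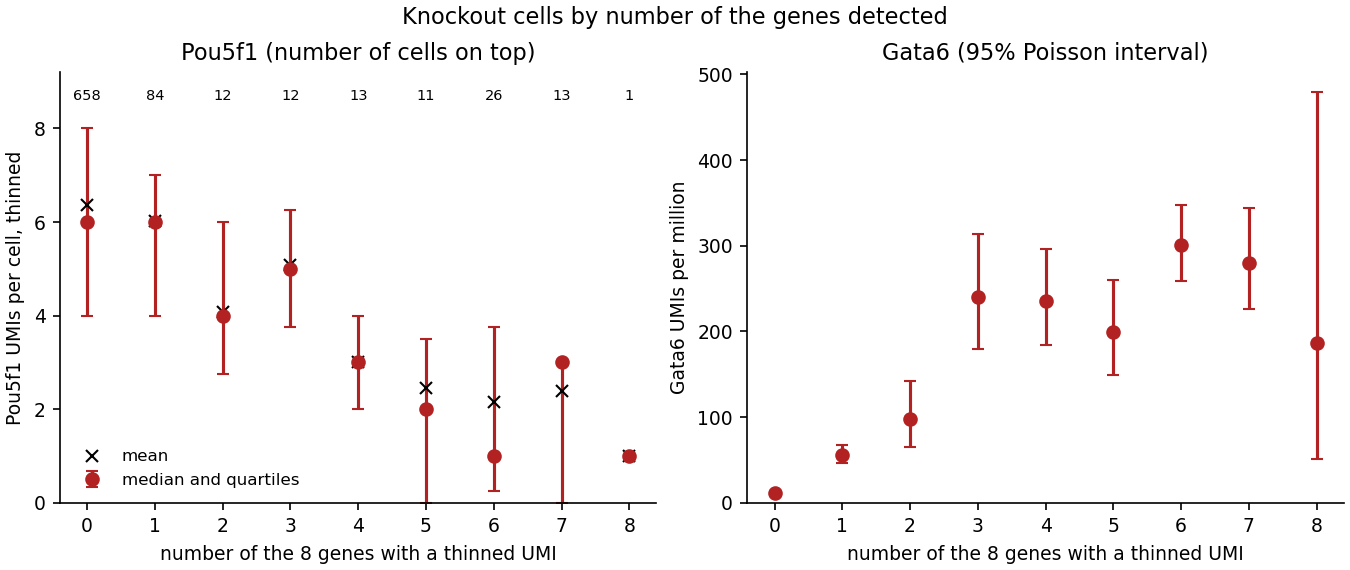
Thinned knockout cells by how many of the 8 genes they held, with thinned Pou5f1 UMIs per cell on the left (circles are medians, bars quartiles, crosses means, cell numbers on top) and the Gata6 level in CPM on the right (bars are exact 95% Poisson intervals). Mean Pou5f1 goes from 6.36 at 0 genes to 2.38 at 7, and Gata6 from 11.2 to 280.2 CPM. Of the 12 cells at 2 genes, 2 are macrophage-marked.

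The 64 knockout cells with 4 or more of the genes were then set beside the 658 with none, to see which other genes went with them. These are ranges of a count per cell and not cell types. Median depth was alike, at 23900.5 and 23938 UMIs. Cells under 1% mitochondrial counts made up 4.69% of the first and 18.1% of the second, and cells with a raised chromosome 8 share 65.6% and 47.0%, and the part of either in the differences was not tested. The summed fibroblast list was at 11.7 and 21.04 CPM and the macrophage list at 7.82 and 13.1 CPM. These values decide little, as fibroblast-marked cells had been left out beforehand. Kept macrophage-marked cells held only Dab2 and Srgn of the 8 genes, so they could not reach 4. The macrophage list was at 334 CPM in knockout cells with 1 gene and 4494 CPM in those with 2. Over the 6964 genes whose mean over the ranges reached 10 CPM, 21.3% were at least 2-fold higher in the cells with 4 or more, 7.11% were at least 2-fold lower, and the median log2 ratio was 0.19.

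Partners that receptor uptake needs were examined as a list of 31 genes, from the chaperone of the receptors through the clathrin coat to the lysosome. Of the 29 that passed the minimum, 15 were at least 2-fold higher in the cells with 4 or more genes (21.3% of all genes were). Of these 29, 0 were lower (7.11% of all genes were), and their median log2 ratio was 1.11. Lrpap1, the chaperone that keeps megalin from binding ligands on its way to the surface, was at 778 CPM against 27.0 CPM, a log2 ratio of 4.85 (interval 4.69 to 5.01). Myo6, the motor that moves coated vesicles inward, had a log2 ratio of 4.94 (interval 4.47 to 5.45), and Clcn5, the chloride transporter that helps acidify endosomes, one of 4.91 (interval 4.47 to 5.38). Ctsl, a lysosomal protease, was at 1838 CPM against 71.4 CPM, a log2 ratio of 4.69 (interval 4.59 to 4.79). These 4 genes were also the only ones of the 31 at least 2-fold higher in the whole knockout library, with log2 ratios of 1.34, 1.07, 1.11 and 1.42.

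The other partners that passed spread between these genes and no difference. Of them 11 were at least 2-fold higher, among them the clathrin heavy chain Cltc (log2 ratio 2.52) and the lysosomal membrane protein Lamp1 (2.57), both named after their values were seen. At the low end, Rab5a, a small GTPase of early endosomes, had a log2 ratio of 0.37 (interval 0.08 to 0.63), and Gipc1, which binds megalin's tail, had one of -0.04 (interval -0.40 to 0.28). Both intervals include the median of all genes. Between the whole libraries the list had a median log2 ratio of 0.15, with 4 of 31 at least 2-fold higher (2.98% of all genes were) and 0 lower (1.78% were).

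**Figure D5:**
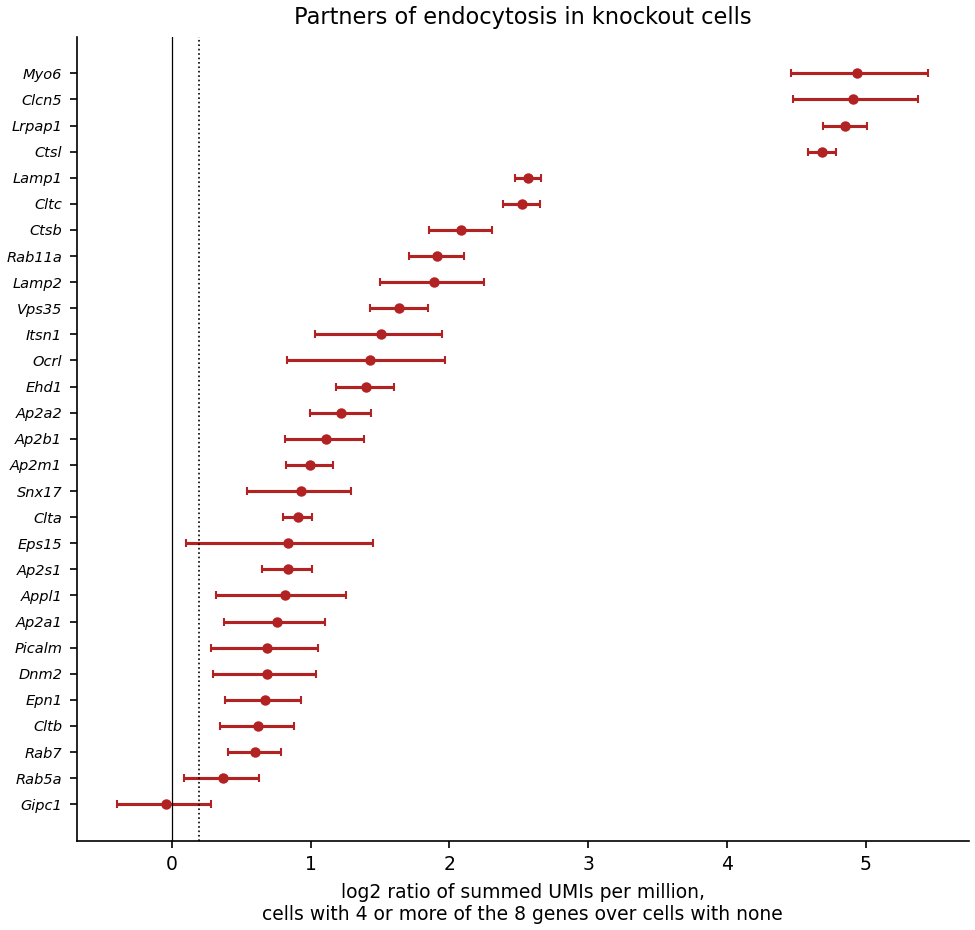
Log2 ratio of CPM, knockout cells with 4 or more of the 8 genes (64 cells) over those with none (658 cells), for the 29 partners of endocytosis that passed the minimum, with exact 95% intervals of counting error. The dotted line is the median of all 6964 genes (0.19), and Myo6, Clcn5, Lrpap1 and Ctsl stand apart above 4.5.

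Other endocytic receptors went in both directions. Of 15 listed, 8 passed the minimum. In the cells with 4 or more genes, 4 of them were at least 2-fold higher (21.3% of all genes were) and 1 was lower (7.11% were). Their median log2 ratio was 1.07, near the 1.11 of the partners, against 0.19 over all genes. Vldlr, a lipoprotein receptor related to megalin, had a log2 ratio of 3.61 (interval 2.88 to 4.35), and Igf2r, which brings enzymes and insulin-like growth factor to lysosomes, had one of 2.15 (interval 1.70 to 2.57). Tfrc, the transferrin receptor, went the opposite way, with 2 UMIs (1.30 CPM) in the cells with 4 or more genes and 974 UMIs (60.5 CPM) in those with none, a log2 ratio of -5.21 (interval -8.58 to -3.68). Between the whole libraries Tfrc had a log2 ratio of -0.01 (interval -0.13 to 0.10). Scarb1, a receptor for lipoproteins, had a log2 ratio of 0.40 (interval -0.17 to 0.89) between the ranges.

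Relatives of Pdgfra, S100g and Aqp8 showed no common direction. Pdgfa, which encodes a ligand of the receptor, was the only one of 8 genes for ligands and relatives of Pdgfra to pass the minimum, with a log2 ratio of -0.99 (interval -1.55 to -0.51) and 22.2 against 44.6 CPM. Pdgfrb had 1 UMI in the cells with 4 or more genes and 10 in those with none. Of 11 other S100 and calcium-handling genes, 5 passed, 4 were at least 2-fold higher (21.3% of all genes were) and 1 was lower (7.11% were). S100a10 was at 671 CPM against 183 CPM (log2 ratio 1.87), while S100a6 was at 19.6 CPM against 172 CPM (log2 ratio -3.11, interval -3.71 to -2.62). None of the 7 other aquaporins passed the minimum, and Aqp3 had 0 UMIs in the cells with 4 or more genes and 83 in those with none.

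Genes listed for several branches of endoderm were higher in these cells, though the lists do not tell the branches apart. Over all 6964 genes, 21.3% were at least 2-fold higher and 7.11% lower, and several lists had few genes that passed. Of 9 primitive endoderm factors, 8 passed and 7 were at least 2-fold higher in the cells with 4 or more genes, among them Foxa2 with 90 UMIs against 2 (log2 ratio 8.57, interval 6.99 to 11.9). All 11 basement membrane genes were at least 2-fold higher, led by Col4a2 (log2 ratio 7.59) and Col4a1 (7.15). Of 12 visceral endoderm genes, 7 passed, 5 were higher and 1 lower. Ttr had 156 UMIs against 1 (log2 ratio 10.1, interval 8.18 to 15.99), Apob 54 against 1 (log2 ratio 8.58, interval 6.61 to 14.5), and Apoa2 went down with a log2 ratio of -3.43. A single cell held 28 of the 34 UMIs of Apoa1, another of the higher genes, with 14 of the 54 for Apob and 19 of the 156 for Ttr. Afp, the classic marker of later visceral endoderm, had 0 UMIs in these cells. Of 8 parietal endoderm genes, 4 passed and 3 were higher, led by Pth1r (log2 ratio 6.49), and Cts8 had 0 UMIs. Of 7 definitive endoderm genes, 2 passed and both were higher, Lhx1 (8.72, interval 7.15 to 12.1) and Eomes (3.05), while Cer1 had 7 UMIs against 0. Of the endothelial and trophectoderm lists 1 gene each passed, Egfl7 (1.83) and Eomes again, both higher.

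Pluripotency genes were lower in the same cells, though unequally. Of 14, all passed, 11 were at least 2-fold lower (7.11% of all genes were) and 0 were higher (21.3% were), with a median log2 ratio of -1.53. Fgf4, which encodes a growth factor that pluripotent cells secrete, had 1 UMI against 799 (log2 ratio -5.67, interval -11.55 to -3.77). Tdgf1, a co-receptor of Nodal, had a log2 ratio of -4.45 (interval -4.88 to -4.08), from 777 CPM to 35.2 CPM. Pou5f1 was at 356 CPM against 793 CPM, a log2 ratio of -1.16, and Zfp42 (-0.19) and Tbx3 (0.51) stayed within 2-fold.

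The genes whose pattern was most like the summed UMIs of the 8 genes were ranked by Pearson r across the 830 knockout cells. Of 7302 other genes with at least 50 thinned UMIs, 219 (3%) had an r of at least 0.3. The basement membrane collagens Col4a1 (0.88) and Col4a2 (0.85) led, followed by the collagen chaperone Serpinh1 (0.81), the lysosomal protease Lgmn (0.81), the transcription factor Foxq1 (0.80), the matrix protein Sparc (0.80) and Ctsl (0.80). Next came Lrpap1 (0.76), Amot (0.75), Gata4 (0.74), the laminin genes Lama1 (0.74) and Lamb1 (0.74), Podxl (0.72), Vamp8 (0.68) and Lamc1 (0.67). At the other end stood Chchd10 (-0.65), Mkrn1 (-0.63), Tmsb4x (-0.58), Bex1 (-0.55) and Tdgf1 (-0.53).

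Single genes had leading companions of their own. Col4a1 had the highest r with Cubn (0.85), Lrp2 (0.77), Amn (0.68) and Dab2 (0.84), and Lgmn with Srgn (0.81). Pdgfra was most like Lama1 (0.58). S100g was most like Clu (0.55) and the protease Ctsh (0.54), and Aqp8 was most like Pga5, a pepsinogen gene (0.54), and Ctsh (0.52). The last genes thus shared Ctsh among their top 3, which Cubn, Lrp2, Amn, Dab2, Pdgfra and Srgn did not have there. S100g and Aqp8 were found in only 25 and 21 thinned cells. A single cell held 32.6% and 29.4% of their unthinned UMIs, and its part in these values of r was not tested.

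Within the knockout library the 8 genes were found across both kinds of cells that set it apart. In cells with a raised share of chromosome 8, none of the 8 genes being on that chromosome, Cubn was at 81.6 CPM against 59.8 CPM in the other cells, Srgn at 124 against 82.9 CPM and Pdgfra at 20.1 against 9.66 CPM. In summed counts Lrp2 went the other way, at 39.3 against 57.8 CPM, and so did Aqp8, at 8.41 against 10.7 CPM with overlapping counting intervals. By unthinned share of cells, all 8 genes were more frequent where the chromosome 8 share was raised. Lrp2 was found in 15.4% against 10.7% of cells, and Aqp8 in 4.91% against 2.56%. In cells with under 1% mitochondrial counts, whose median depth was 8632 UMIs, Cubn was at 16.9 CPM against 79.2 CPM in the other knockout cells, and Pdgfra at 1.41 against 17.0 CPM. All 8 genes had a lower level in those shallow cells than in the rest of the library, and the part of depth or RNA quality in this was not tested.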

How the data were processed

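Droplet (10x Genomics Chromium) libraries of knockout and wild-type iPSCs, 1 each, were used. The authors deposited whole-number UMI counts per gene and cell, not normalised, per the file headers. The submitters' processing notes name Cell Ranger 2.0.0, Seurat 3.1.1 and mm10, without their roles. How cells were called and whether strand was used is not given in the sources used here.

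Counts were summed over kept cells and scaled to CPM. Intervals are exact: Clopper-Pearson for shares, Poisson for counts and, for ratios, binomial given the sum of both counts. A count of 0 allows 3 counts. Cells were thinned without replacement to the 10th percentile of totals. Doublets were called with Scrublet (scanpy 1.11.5) and kept, 2 knockout and 5 wild-type cells. Scripts were tested on simulated data. Positions are from GENCODE M21, with 27645 of 27998 genes matched.

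The 8 genes and all lists were chosen with earlier results of these data known. Beyond the 8, named genes were those of highest and lowest log2 ratio (2 each) in a list, the closest 15 and farthest 5 by r, the top 3 for each of the 8, and any in a count of 5 or fewer; marker genes, Pdgfrb, Cltc and Lamp1 outside that rule were named after their values were seen. The bulk RNA sequencing that the design names was not analysed here. One gene of the list of endocytic partners is not reported here.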

Additional observations from a re-analysis of the deposited data

Results flagged for a closer look

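The cells left out of the reported comparisons also held RNA of these genes. In the 76 knockout cells above 10% mitochondrial counts or under 1000 genes (median 7343 UMIs), Srgn was at 168.9 CPM, Dab2 at 80.3, Cubn at 54.1, Lrp2 at 44.3, Amn at 24.6, Pdgfra at 14.8 and Aqp8 at 6.56 CPM. Only 6 of these cells held Srgn, 7 Dab2, 3 Cubn, 10 Lrp2, 9 Amn, 3 Pdgfra and 2 Aqp8. In the 35 such wild-type cells Lrp2 and Amn were at 3.67 CPM each, and the other 6 genes had 0 UMIs. In the 22 fibroblast-marked knockout cells, Dab2 was at 45.1, Pdgfra at 12.9 and Srgn at 6.45 CPM. In the 10 such wild-type cells Dab2 was at 34.0 CPM. These values are flagged because they are signal in cells left out of the values reported (alternatives kept them), above the limit that a count of 0 allows or above the wild type.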

How the results depend on the processing

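No paired analysis was possible because there is 1 library for each genotype. No result changed sign under any alternative. Leaving out cells with a raised chromosome 8 share, chosen after seeing the data, moved the median log2 ratio of the 8 genes from 4.60 to 7.25 and the difference in cells with at least 2 genes from 10.3 to 7.31 percentage points; the wild-type cell with all 8 genes is among those left out. Leaving out each gene's highest cell moved the median to 7.10. With a mean of at least 10 CPM, 5 of the genes could be counted, and all 5 were at least 2-fold higher. Without thinning the difference in share was 12.6 points and the median mutual r 0.59. Counting cells with at least 1 gene gave 15.8 points, and Spearman in place of Pearson gave -0.25 with Pou5f1. The cause was not tested for the last 4. Leaving out macrophage-marked cells, also chosen after seeing the data, moved none of the summary results. Leaving out the 2 cells with most S100g was run for the mutual r alone, which was then 0.51. Of 96 values for single genes under 12 alternatives, 15 left the gene's own counting interval and none changed sign. That interval is wide for S100g, which reached 7.56 within it, and narrow for Dab2. Summary values counted as moved beyond 0.5 for the median log2 ratio, 0.1 in r, 2.20 points or 1.5 times a count. With 1 library a genotype, depth sets counting error only, and culture and genotype cannot be told apart. Protein sequences were not analysed here.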
